A study of Mus musculus with 18 samples.

Results

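The genes described here encode the enzymes, carriers and regulators of hepatic fatty acid oxidation and other targets of PPARA, a fatty acid-activated nuclear receptor. They were followed in the liver of 2 mouse models of raised transintestinal cholesterol excretion, the loss of cholesterol through the intestinal wall instead of through bile. The set was a fixed list of 44 gene symbols, of which 38 were represented among the 17097 genes measured, each by the probe set with the highest mean among those annotated with that symbol alone. Of the other 6, Acsl1, Hadha, Cyp4a14 and Bdh1 had no such probe set in the annotation and Etfb and Acot4 shared theirs with another symbol. These 6 are not among the 38 genes tested. None of the 38 genes passed the test in either model.

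The 4 groups were of female mice aged 6 to 8 weeks, profiled with 1 array per sample (18 in all). Mice with a liver NPC1L1 transgene (n = 5) were set against wild-type mice (n = 5), both on C57BL/6, as a chronic model. An acute model on C57BL/6N compared mice that received an ACAT2 antisense oligonucleotide (ASO, n = 4) with mice that received a control ASO without a target (n = 4). NPC1L1 is a cholesterol transporter, and ACAT2 is the enzyme that esterifies cholesterol in the hepatocyte. The study looked for regulators of reverse cholesterol transport. The promoter of the transgene, the ASO dose and the feeding state of the mice were not given in the sources used here.

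Values are log2 signals made with RMA, a method that corrects the background, normalizes arrays and summarises the probes of a set. The median of an array was 4.61 to 4.65 in the 10 arrays of the NPC1L1 model but 4.38 to 4.40 in the 8 of the ASO model, so levels were compared only within a model. Means over 10 hepatocyte markers lay between 12.34 and 12.58 on all arrays. The mouse Npc1l1 probe set had means of 3.68 ± 0.07 on transgenic and 3.82 ± 0.22 on wild-type arrays (SD, n = 5 each, limma adjusted p = 0.604). The labels do not give the species of the transgene, so this does not check the groups, and the ASO target transcript was not analysed here. Each log2 change is given with limma's standard error and an adjusted p from a fit across all 17097 genes, and a gene was called at an adjusted p under 0.05. The labels number the samples without stating separate animals, so p-values measure the spread between samples, which may be partly technical. Each gene's spread is pooled over the 4 groups, so a gene that varies in 1 model has a wide error in both. In whole liver, fewer cells of a type and less RNA per cell cannot be told apart.

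Fatty acids enter mitochondria as carnitine esters and are shortened by a repeated cycle of dehydrogenation, hydration, dehydrogenation and thiolysis, while very long chains are shortened first in peroxisomes and some chains are oxidized from the omega end by cytochrome P450 enzymes. In fasting, fatty acids released from fat activate PPARA in the liver, which pairs with the retinoid X receptor and raises genes of all these routes together with hormones such as FGF21. The receptor pair binds a direct repeat of the hexamer AGGTCA with 1 base between the copies.

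Promoter sequences from RefSeq (GRCm38.p6, 250 bases before to 50 after the start) were found for 36 of the 44 symbols, in 41 promoters. The hexamer AGGTCA, searched on both strands, was in 8 of the 41 (19.5%), against 16.3% of all 32851 promoters in the table. These were promoters of Acadm, Acadvl, Acot3, Acot4, Cpt1a, Creb3l3 and Fabp1. The full repeat AGGTCANAGGTCA was in 0 of the 41 and in 0.0396% of all promoters. The looser repeat AGGNCANAGGNCA, which includes the full repeat, was in 1 of the 41, that of Fabp1, and in 0.381% of all. Cpt1a is shown because it was the gene with the smallest p of the set, and Fabp1 because it alone held the looser repeat. The Cpt1a promoter lies at chr19:3323051-3323350 and the Fabp1 promoter at chr6:71199629-71199928, both on the plus strand. Capitals mark the hexamer in Cpt1a, which begins 94 bases before the start, and the looser repeat in Fabp1, which begins 67 bases before it. Both matches are on the minus strand.
Cpt1a: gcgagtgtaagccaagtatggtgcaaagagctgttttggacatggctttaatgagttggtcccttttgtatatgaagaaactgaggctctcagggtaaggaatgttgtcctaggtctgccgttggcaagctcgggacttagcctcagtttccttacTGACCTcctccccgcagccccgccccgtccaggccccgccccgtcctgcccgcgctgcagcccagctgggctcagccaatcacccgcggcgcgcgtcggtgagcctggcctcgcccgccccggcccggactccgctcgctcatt
Fabp1: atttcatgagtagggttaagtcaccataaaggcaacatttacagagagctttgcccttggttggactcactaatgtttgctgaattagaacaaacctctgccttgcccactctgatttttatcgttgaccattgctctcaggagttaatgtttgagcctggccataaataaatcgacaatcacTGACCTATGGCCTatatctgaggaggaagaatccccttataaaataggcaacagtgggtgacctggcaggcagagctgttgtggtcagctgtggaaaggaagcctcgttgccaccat
A match of letters is a description of the sequence and not of binding.

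In NPC1L1 transgenic liver limma called 0 of the 38 genes, against 0.228% of all genes (39 of 17097). At an unadjusted p under 0.05 there were again 0 of 38, against 10.9% of all genes. The transgenic and wild-type arrays overlapped for every one of the 38, whereas they did not overlap for 2.22% of all genes. Changes were small: 31 of the 38 lay within 0.2 of 0 on the log2 scale and 17 were smaller than their own standard error. For 27 of the 38 genes the 95% interval of the change stayed within 1.5-fold in both directions and for 34 within 2-fold. The intervals of Acot3, Angptl4, Hao2 and Pdk4 were wider than that, for Pdk4 mostly through the spread of the ASO arrays.

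The signs were uneven in this comparison. Of the 38 genes 30 lay above 0 in transgenic relative to wild-type liver (78.9%, against 52.6% of all genes), with a median change of 0.09 against 0.01 over all genes. This split depended in part on single arrays. Without wild type 2 it was 21 of 38 (median 0.02) and without wild type 3 it was 24 (median 0.06). Without transgenic 3 it was 25 (median 0.04), and without any other single array of this model 29 to 31. A setting added after seeing the data left out the array of lowest weight in each group, among them wild type 2 and transgenic 3. There 18 of 38 lay above 0, with a median of -0.02. For most of the 38 genes wild type 2 was the lowest and transgenic 3 the highest of its group, so leaving both out lowers the change.

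After ACAT2 ASO limma called 0 of the 38 genes, against 0.597% of all genes (102 of 17097). Cpt1a and Fgf21 had an unadjusted p under 0.05 (2 of 38, 5.26%), against 13.3% of all genes. Cpt1a was also the single gene of the 38 whose groups did not overlap (2.63%), against 9.05% of all genes. Of the 38, 30 lay within 0.2 of 0 and 24 changed by less than their standard error. The 95% interval stayed within 1.5-fold for 28 and within 2-fold for 33, the exceptions to the second being Acot1, Acot2, Acot3, Hao2 and Pdk4. After ACAT2 ASO 24 of 38 lay below 0 (63.2%, against 50.3% of all genes), with a median of -0.04 against -0.00056 over all genes. Without ACAT2 ASO 1 the count turned to 15 of 38 below 0 (median 0.05), without control ASO 1 to 15 of 38 (median 0.03), and without control ASO 4 it was 34 of 38 (median -0.11).

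The difference between the 2 effects was tested directly, and limma called 0 of the 38 genes for it, against 1.07% of all genes. Cpt1a, Ech1 and Fgf21 had an unadjusted p under 0.05 (3 of 38, 7.89%), against 15.4% of all genes.

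**Figure D1:**
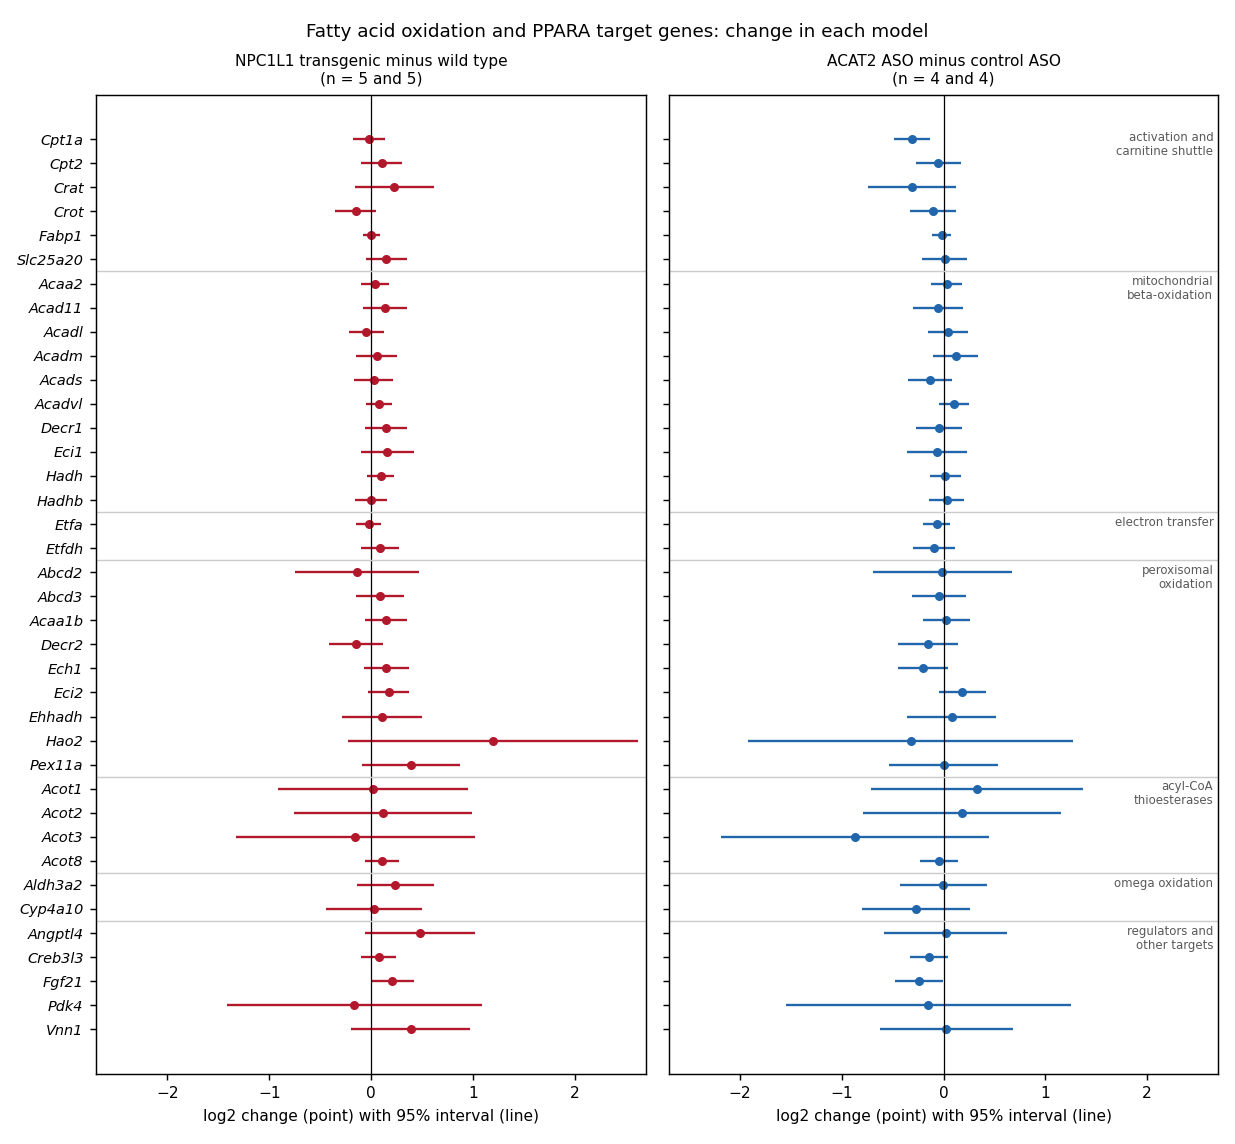
Log2 change of each of the 38 genes (points, x axis) with its 95% interval from limma (lines), for NPC1L1 transgenic minus wild-type liver on the left and ACAT2 ASO minus control ASO on the right, with genes ordered by role on the y axis. Most points lie within 0.2 of 0, Cpt1a lies at -0.31 in the right panel, and the intervals of Hao2, Acot3 and Pdk4 are among the widest in both panels.

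Activation, fatty acid binding and the carnitine shuttle were covered by 6 genes, of which 4 lay above 0 in transgenic liver (median 0.05) and 5 below 0 after ACAT2 ASO (median -0.08). Cpt1a encodes carnitine palmitoyltransferase 1A, the rate-limiting step of fatty acid entry into liver mitochondria. Its 4 ACAT2 ASO arrays read 10.50, 10.55, 10.60 and 10.64, against 11.01, 10.71, 10.94 and 10.89 on the control ASO arrays. Every ACAT2 ASO array was thus below every control ASO array, with the closest values 10.64 and 10.71. The change was -0.31 ± 0.08, a ratio of 0.806, and did not pass the test (limma adjusted p = 0.101). Leaving out single arrays gave changes between -0.37 and -0.27 with limma adjusted p between 0.0548 and 0.270. In transgenic liver Cpt1a read 11.11, 10.98, 11.20, 10.98 and 11.06, against 11.05, 10.83, 11.08, 11.27 and 11.21 in wild-type liver (change -0.02 ± 0.08, limma adjusted p = 0.963). The effects in the models differed by 0.29 ± 0.11 (limma adjusted p = 0.221).

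The other carnitine genes showed no called change. Crat, carnitine acetyltransferase, read 6.57, 6.94, 7.03 and 7.49 after ACAT2 ASO, against 7.85, 7.08, 7.47 and 6.88 after control ASO, and the groups overlapped over most of their range (change -0.31 ± 0.21, limma adjusted p = 0.563). Slc25a20 encodes the carrier that exchanges acylcarnitine for carnitine across the inner mitochondrial membrane. It read 10.40, 10.36, 10.50, 10.16 and 10.24 in transgenic liver and 10.31, 9.90, 10.03, 10.34 and 10.33 in wild-type liver, where arrays 2 and 3 were lowest (change 0.15 ± 0.09, limma adjusted p = 0.616). Crot, the peroxisomal carnitine octanoyltransferase, read 4.80, 5.02, 4.80, 5.25 and 4.87 in transgenic and 5.14, 4.86, 5.40, 5.09 and 5.00 in wild-type liver, close to the 4.74 that bounds the lowest 40% of genes (change -0.15 ± 0.10, limma adjusted p = 0.616). Fabp1, the abundant fatty acid-binding protein of the hepatocyte, had the highest mean signal of the set. It held between 13.30 and 13.38 in transgenic and between 13.27 and 13.40 in wild-type liver, and on the ACAT2 ASO arrays between 13.07 and 13.21, against 13.11 to 13.23 on the control ASO arrays. Its changes were 0.00 ± 0.04 and -0.02 ± 0.04, among the smallest standard errors of the set.

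Mitochondrial beta-oxidation was represented by 10 genes, with changes from -0.05 (Acadl) to 0.16 (Eci1) in transgenic liver and from -0.14 (Acads) to 0.12 (Acadm) after ACAT2 ASO. In transgenic liver 9 of the 10 lay above 0, with a median of 0.07, and after ACAT2 ASO 6 of the 10, with a median of 0.02. Limma called 0 of the 10 in each. Decr1, 2,4-dienoyl-CoA reductase, which handles polyunsaturated chains, read 11.15, 11.02, 11.20, 11.02 and 10.80 in transgenic liver, against 10.96, 10.64, 10.84, 11.02 and 11.01 in wild-type liver (change 0.15 ± 0.10, limma adjusted p = 0.630). Hadh, the dehydrogenase for short-chain hydroxyacyl-CoA, read 12.63, 12.72, 12.72, 12.62 and 12.56, against 12.59, 12.37, 12.58, 12.59 and 12.63 (change 0.10 ± 0.06, limma adjusted p = 0.636). In both genes wild type 2 was the lowest wild-type array, and the other 4 wild-type arrays lay within the transgenic range.

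The acyl-CoA dehydrogenases catalyse the opening step of the cycle for chains of different length. Acadvl, for very long chains, read 10.96, 10.96, 11.11 and 11.11 after ACAT2 ASO, against 10.98, 10.94, 11.04 and 10.78 after control ASO (change 0.10 ± 0.07, limma adjusted p = 0.591). Acadm, for medium chains, read 11.67, 11.75, 11.94 and 11.98, against 11.79, 11.77, 11.84 and 11.48 (change 0.12 ± 0.11, limma adjusted p = 0.697), and in both genes control ASO 4 was the lowest array. Acads, for short chains, read 9.01, 9.17, 9.0 and 9.22, against 9.47, 9.15, 9.26 and 9.07 (change -0.14 ± 0.10, limma adjusted p = 0.627), where control ASO 1 was the highest. For Acadl, the dehydrogenase for long chains, the transgenic change was -0.05 and the ASO change 0.05. Hadhb, the beta subunit of the trifunctional protein, changed by 0.00 ± 0.07 and 0.03 ± 0.08, while its other probe set, with a mean of 5.75 against 10.75, changed by 0.06 and -0.40. For Acaa2, the last enzyme of the cycle, the probe set used changed by 0.04 in transgenic liver and the other sets by -0.03 and -0.12.

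Electrons from these dehydrogenases pass through the electron transfer flavoprotein to the respiratory chain. Etfdh, the membrane-bound oxidoreductase of that step, read 10.17, 9.99, 10.36, 10.11 and 9.95 in transgenic liver and 10.10, 9.78, 9.90, 10.18 and 10.17 in wild-type liver (change 0.09 ± 0.09, limma adjusted p = 0.783). Etfa, a subunit of the flavoprotein, read 11.05, 11.14, 11.18 and 11.26 after ACAT2 ASO, against 11.32, 11.24, 11.27 and 11.08 on the control ASO arrays (change -0.07 ± 0.06, limma adjusted p = 0.713). Both groups of values overlapped.

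Peroxisomal genes numbered 9, of which 7 lay above 0 in transgenic liver (median 0.15) and 6 below 0 after ACAT2 ASO (median -0.01), with 0 called in each. Hao2, a peroxisomal hydroxyacid oxidase that is expressed more in female than in male mouse liver, had the largest change of the set and the widest spread. It read 5.45, 7.01, 7.68, 7.04 and 5.38 in transgenic liver, against 5.61, 5.27, 5.32, 5.51 and 4.84 in wild-type liver. Transgenic arrays 2, 3 and 4 lay above all wild-type arrays, and transgenic 1 and 5 lay within their range. The change of 1.20 ± 0.68 had a 95% interval from -0.22 to 2.63 (limma adjusted p = 0.555). In the ASO model Hao2 read 6.09, 8.54, 8.63 and 8.76 after ACAT2 ASO, against 9.36, 9.57, 8.72 and 5.66 after control ASO. One array of each group, ACAT2 ASO 1 and control ASO 4, lay far below the rest, and the change was -0.32 ± 0.76 (limma adjusted p = 0.907), or -1.21 without control ASO 4 and 0.32 without ACAT2 ASO 1.

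Ech1, a dienoyl-CoA isomerase found in peroxisomes and mitochondria, read 11.09, 11.30, 11.33 and 11.28 after ACAT2 ASO, against 11.55, 11.51, 11.57 and 11.18 after control ASO. Control ASO arrays 1, 2 and 3 lay above all ACAT2 ASO arrays, and control ASO 4 lay within their range (change -0.20 ± 0.12, limma adjusted p = 0.477, between -0.30 and -0.15 without single arrays). In transgenic liver Ech1 read 11.28, 11.38, 11.51, 11.17 and 11.09, against 11.11, 10.85, 11.04, 11.36 and 11.33 in wild-type liver (change 0.15 ± 0.10, limma adjusted p = 0.653). The effects differed by 0.35 ± 0.16 (limma adjusted p = 0.283).

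Eci2, an enoyl-CoA isomerase for unsaturated chains, lay above 0 in both models. It read 10.65, 10.50, 10.64, 10.60 and 10.46 in transgenic liver, against 10.51, 10.01, 10.24, 10.63 and 10.60 in wild-type liver (change 0.17 ± 0.10, limma adjusted p = 0.555). After ACAT2 ASO it read 11.13, 11.01, 11.24 and 11.27, against 10.90, 10.96, 11.06 and 10.99 after control ASO, where ACAT2 ASO 2 lay below control ASO 3 (change 0.19 ± 0.11, limma adjusted p = 0.495). Pex11a, which acts in peroxisome division and is a classical PPARA target, read 9.34, 9.53, 9.73, 9.36 and 9.30 in transgenic liver and 9.49, 8.34, 8.43, 9.57 and 9.45 in wild-type liver. The change of 0.40 ± 0.23 (limma adjusted p = 0.568) rested on wild type 2 and 3, since the other 3 wild-type arrays lay within the transgenic range, and it was 0.22 without wild type 2. Its other probe set also changed by 0.40. Acaa1b, a peroxisomal thiolase, read 12.69, 12.79, 12.85, 12.71 and 12.59 in transgenic liver, against 12.53, 12.36, 12.50, 12.71 and 12.78 in wild-type liver (change 0.15 ± 0.10, limma adjusted p = 0.640). Ehhadh, the peroxisomal bifunctional enzyme, and Abcd3, a peroxisomal fatty acyl-CoA transporter, had transgenic changes of 0.11 and 0.09 and ASO changes of 0.08 and -0.04.

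The acyl-CoA thioesterases, which release free fatty acids from CoA, varied widely between arrays of a group. Acot3 (peroxisomal) read 8.07, 9.99, 10.68 and 10.77 after ACAT2 ASO, against 11.13, 10.94, 11.07 and 9.84 after control ASO. The lowest value of each group stood apart from the other 3, and the change was -0.87 ± 0.62 (limma adjusted p = 0.607), or -0.27 without ACAT2 ASO 1. Its probe set may also read near-identical copies, and 2 probe sets annotated to Acot4 and Acot3 together changed by -0.50 and -0.46. Acot1 (cytosolic) ranged from 7.29 to 8.83 in transgenic and from 6.90 to 9.03 in wild-type liver, and on the ACAT2 ASO arrays from 9.80 to 11.22, against 9.30 to 10.83 on the control ASO arrays. Its changes were 0.02 ± 0.44 and 0.33 ± 0.49 (limma adjusted p = 0.994 and 0.847). Acot2, a mitochondrial enzyme with a near-identical sequence, changed by 0.12 ± 0.41 and 0.18 ± 0.46. Acot8, a peroxisomal thioesterase of another family, was steadier, at 7.89, 7.82, 8.13, 7.93 and 7.84 in transgenic liver and 7.96, 7.77, 7.68, 7.80 and 7.87 in wild-type liver (change 0.11 ± 0.08, limma adjusted p = 0.693).

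Omega oxidation was represented by a hydroxylase and an aldehyde dehydrogenase. Cyp4a10, a cytochrome P450 that hydroxylates fatty acids and is among the most PPARA-responsive genes of mouse liver, read 11.26, 11.56, 12.08 and 12.36 after ACAT2 ASO, against 12.45, 11.90, 12.19 and 11.79 after control ASO (change -0.27 ± 0.25, limma adjusted p = 0.717). In transgenic liver it changed by 0.03 ± 0.23, and its probe set may read other Cyp4a genes. Aldh3a2, the fatty aldehyde dehydrogenase, read 9.84, 10.10, 10.46, 9.78 and 9.61 in transgenic liver, against 9.73, 9.33, 9.59, 9.89 and 10.05 in wild-type liver (change 0.24 ± 0.18, limma adjusted p = 0.690). Transgenic 3 was the highest and wild type 2 the lowest of these 10 arrays.

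The last 5 genes are regulators and other targets of PPARA. Fgf21, the fasting hormone of the liver, had the smallest p in transgenic liver and the second smallest after ACAT2 ASO, with opposite signs. It read 4.84, 4.72, 4.78, 4.53 and 4.79 in transgenic liver, against 4.75, 4.47, 4.39, 4.46 and 4.56 in wild-type liver (change 0.21 ± 0.10, limma adjusted p = 0.465). After ACAT2 ASO it read 5.06, 4.99, 4.68 and 5.08, against 5.10, 5.05, 5.53 and 5.09 after control ASO (change -0.24 ± 0.11, limma adjusted p = 0.358). All these values were low on the array's scale. Without control ASO 3, its highest array, the ASO change was -0.13, and the difference of the effects was 0.45 ± 0.15 (limma adjusted p = 0.152).

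Angptl4, a secreted inhibitor of lipoprotein lipase, read 9.66, 9.86, 8.75, 9.62 and 9.69 in transgenic liver, against 9.28, 8.12, 8.59, 9.78 and 9.39 in wild-type liver (change 0.49 ± 0.26, limma adjusted p = 0.521). Transgenic 3, the array on which most of the set was highest, was here the lowest of its group, and without it the change was 0.68. The other Angptl4 probe set, with a mean of 3.46, changed by -0.15. Creb3l3, a liver transcription factor that acts with PPARA, read 9.66, 9.76, 9.52 and 9.65 after ACAT2 ASO, against 9.64, 9.75, 9.85 and 9.91 after control ASO (change -0.14 ± 0.09, limma adjusted p = 0.537). Vnn1, a pantetheinase, had a transgenic change of 0.39 ± 0.28 (limma adjusted p = 0.664), or 0.15 without transgenic 3, and an ASO change of 0.03 ± 0.31. Pdk4, the kinase that shuts off pyruvate dehydrogenase in fasting, lay between 4.44 and 4.98 in transgenic and between 4.59 and 4.94 in wild-type liver. These values were close to the 4.74 that bounds the lowest 40% of genes. In the ASO model Pdk4 spread from 4.46 to 7.92 on the ACAT2 ASO arrays, against 4.96 to 7.72 on the control ASO arrays. ACAT2 ASO 3 and 4 and control ASO 1 and 3 were high and the other 4 arrays low. Its changes were -0.16 ± 0.59 and -0.15 ± 0.66 (limma adjusted p = 0.959 and 0.954).

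**Figure D2:**
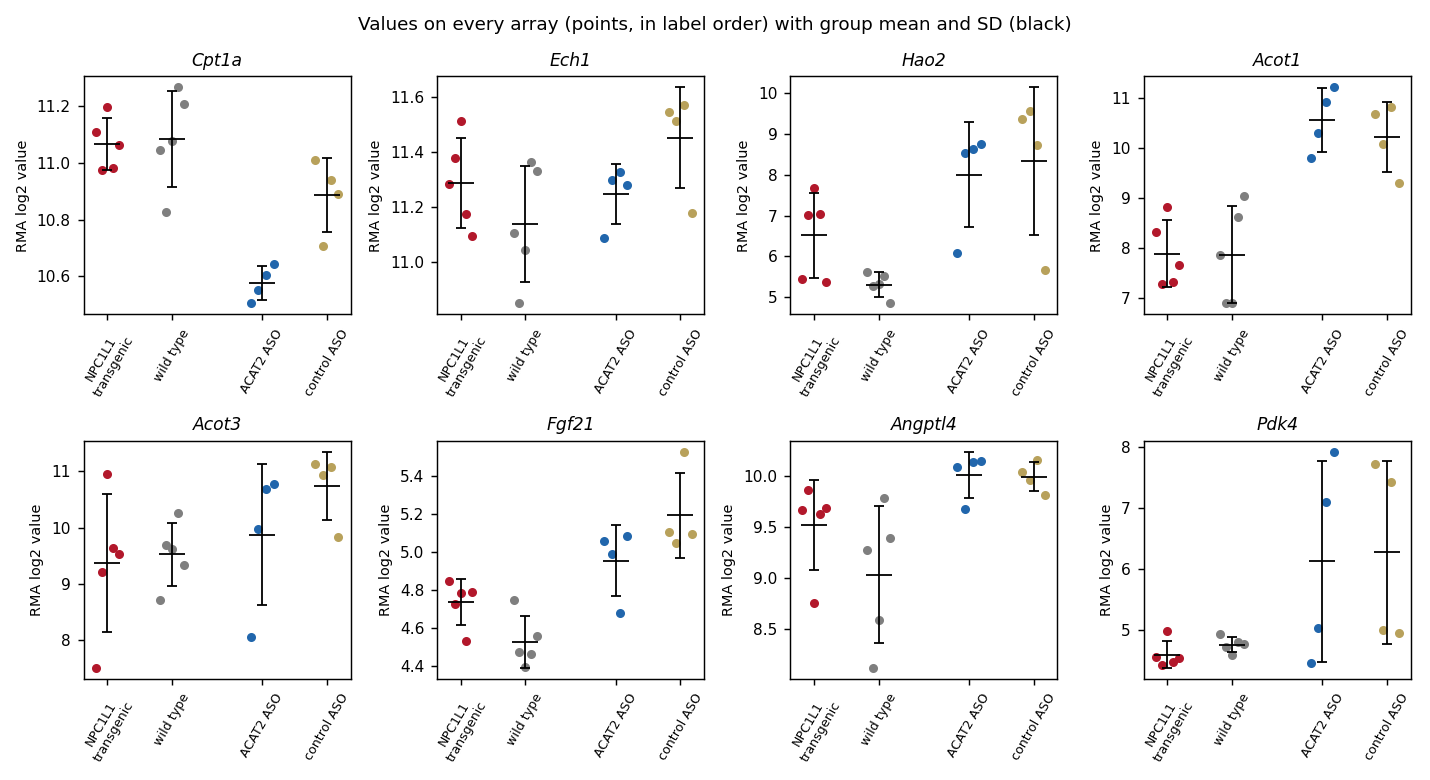
RMA log2 value on every array (points in label order, y axis, a separate scale per gene) with the group mean and SD (black bars), for 8 genes in the 4 groups (x axis, NPC1L1 transgenic and ACAT2 ASO each left of its control). The 4 ACAT2 ASO arrays of Cpt1a lie below all 4 control ASO arrays, Hao2 splits the transgenic arrays, and Pdk4 splits both ASO groups in 2.

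On single arrays most of the 38 genes were high together or low together. Transgenic 3 was the highest of its 5 arrays for 30 of the 38 genes, whereas it was the highest for 24.7% of all genes. Transgenic 5 was the lowest of that group for 21 genes, against 20.8% of all genes. Wild type 2 was the lowest of its 5 arrays for 30 of 38 genes, against 28.1% of all genes. In the ASO model ACAT2 ASO 1 was the lowest of 4 for 29 genes and ACAT2 ASO 4 the highest for 27, against 28.6% and 19.3% of all genes. Control ASO 4 was the lowest of its group for 30 genes, against 31.3% of all genes, and control ASO 1 the highest for 21, against 26.6% of all genes. These counts describe the arrays and have no test.

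The mean over the 38 genes read 9.66, 9.69, 10.01, 9.68 and 9.57 in transgenic liver and 9.66, 9.33, 9.46, 9.79 and 9.80 in wild-type liver. On the ACAT2 ASO arrays it was 9.73, 10.04, 10.21 and 10.36, against 10.40, 10.10, 10.31 and 9.80 on the control ASO arrays. The groups overlapped in both models, and in the ASO model each group spanned nearly the whole range of the model. Markers of several other cell types, but not of all those listed, were high on the arrays where the 38 genes were low. For macrophages and Kupffer cells, the resident macrophages of the liver, the marker mean over 10 of 10 listed genes was 9.91 on wild type 2, against 8.40 to 9.10 on the other wild-type arrays and 8.64 to 9.45 in transgenic liver. It was 9.51 on ACAT2 ASO 1, against 7.76 to 8.52 on the other arrays of that group, and 9.10 on control ASO 4, against 7.81 to 7.84 on the others. Lymphocyte markers (9 of 10 listed) were also highest in their group on wild type 2, ACAT2 ASO 1 and control ASO 4, with means of 5.53, 5.07 and 5.08, and so were erythroid markers (4 of 7), at 7.19, 6.86 and 6.93. Endothelial markers (8 of 8) were highest in their group on ACAT2 ASO 1 and control ASO 4, at 7.72 and 7.61, and on wild type 2 and 4 alike, at 7.87. Neutrophil markers (6 of 8) were highest in their group on wild type 2 and control ASO 4, at 5.79 and 5.77, and on ACAT2 ASO 4, at 5.56. In transgenic liver, transgenic 5 had the lowest mean of the 38 genes (9.57) and the highest macrophage mean of its group (9.45). Its lymphocyte, erythroid and endothelial means (5.48, 7.47 and 7.90) were also the highest, while its neutrophil mean (5.32) lay below that of transgenic 3 (5.34). Adipocyte, cholangiocyte, muscle and stellate cell markers did not share this pattern on all of these arrays. The stellate cell markers were highest in their group on transgenic 5 (7.38) and ACAT2 ASO 1 (6.70). Adipocyte markers were so on transgenic 5 alone (6.80), and cholangiocyte and muscle markers on none of these arrays. On control ASO 4 the stellate cell and cholangiocyte markers were lowest in their group, and on wild type 2 the adipocyte markers were. Transgenic 3, where the 38 genes were high, lay within its group for the macrophage markers at 9.04. The macrophage markers changed by a median of 0.05 in transgenic liver and 0.37 after ACAT2 ASO. After ACAT2 ASO 10 of 10 lay above 0, against 49.7% of all genes, and limma called 0. As a measure of RNA quality, the 3′ minus 5′ signal of Actb was highest on transgenic 3 at 1.26 and lowest on wild type 2 at 0.83. The same measure for Gapdh did not follow this order: it was highest on ACAT2 ASO 2 at 0.341, against 0.281 on transgenic 3, and wild type 2 lay mid-range in its group at 0.187. The part of these markers and of RNA quality in the array pattern was not tested.

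**Figure D3:**
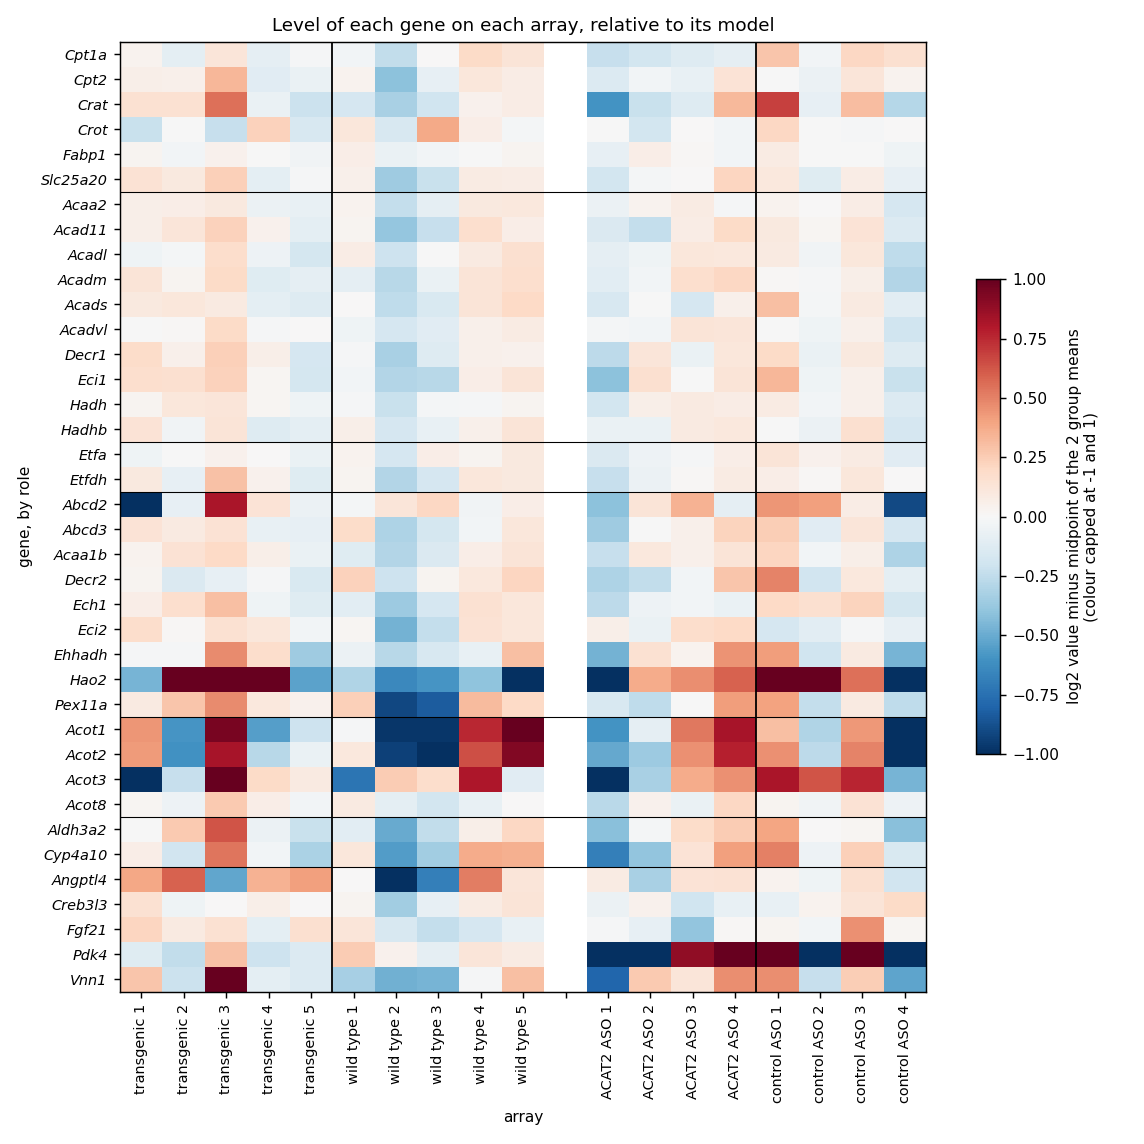
Log2 value of each of the 38 genes (rows, by role) on each of the 18 arrays (columns, NPC1L1 transgenic left of wild type and ACAT2 ASO left of control ASO), as the difference from the midpoint of the 2 group means of that model, with the colour capped at -1 and 1. Columns rather than groups share a colour: transgenic 3 is red and wild type 2, ACAT2 ASO 1 and control ASO 4 are blue for most genes.

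**Figure D4:**
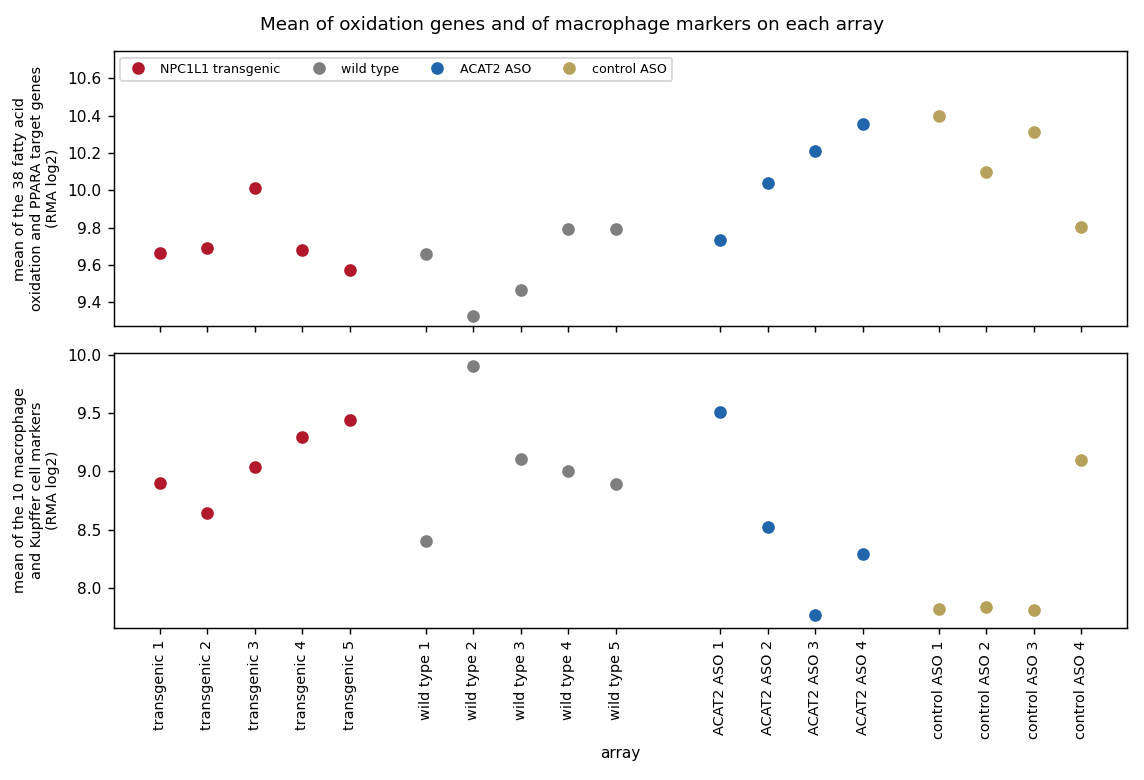
Mean RMA log2 value of the 38 genes (upper panel, y axis) and of the 10 macrophage and Kupffer cell markers (lower panel, y axis) on each array (x axis, 1 point per array). In every group the array with the lowest upper value has the highest lower value. These are transgenic 5 (9.57 and 9.45), wild type 2 (9.33 and 9.91), ACAT2 ASO 1 (9.73 and 9.51) and control ASO 4 (9.80 and 9.10).

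The receptor itself and its neighbours in the pathway were read from further lists. Ppara read 10.18, 10.34, 10.51, 10.29 and 10.11 in transgenic liver and 10.22, 9.93, 10.29, 10.43 and 10.48 in wild-type liver (change 0.01 ± 0.12, limma adjusted p = 0.985). On the ACAT2 ASO arrays it read 9.91, 10.15, 10.25 and 10.31, against 10.45, 10.34, 10.44 and 9.95 on the control ASO arrays (change -0.14 ± 0.13, not called), and the groups overlapped in both. Among PPARA, its partners and cofactors 16 of 19 listed genes were measured. Limma called 0 of these in transgenic liver and 1 after ACAT2 ASO, against 0.228% and 0.597% of all genes. That gene was Ncoa2, a nuclear receptor coactivator, which read 8.62, 8.62, 8.66 and 8.77 after ACAT2 ASO, against 8.26, 8.32, 8.36 and 8.42 after control ASO. Every ACAT2 ASO array was above every control ASO array (change 0.33 ± 0.06, limma adjusted p = 0.0267). The call was lost without ACAT2 ASO 1, 3 or 4 or control ASO 1, 2 or 3, with a highest limma adjusted p of 0.0969, and with the mean of the gene's 4 probe sets (0.14, limma adjusted p = 0.199). The other 3 probe sets, all with means of 4.60 or less, changed by 0.17, -0.08 and 0.15. The effects on Ncoa2 in the models differed by -0.38 ± 0.09 (limma adjusted p = 0.0452), a call that held without 5 of the 18 arrays when each was left out in turn and was lost without any other (highest limma adjusted p = 0.101).

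Peroxisome biogenesis genes were measured for 14 of 18 listed. After ACAT2 ASO 11 of these lay below 0 (median -0.06), against 50.3% of all genes, and 1 was called lower, against 0.415% of all genes. In transgenic liver 10 lay above 0 (median 0.07), against 52.6% of all genes, and 0 were called. The mean of the 14 genes was lowest in its group on wild type 2, ACAT2 ASO 1 and control ASO 4, at 8.83, 8.73 and 8.94. Pex13, a membrane component of the peroxisomal import machinery, fell to 8.78, 8.92, 9.0 and 8.91 after ACAT2 ASO, against 9.51, 9.31, 9.38 and 9.23 after control ASO. The groups did not overlap (change -0.45 ± 0.06, limma adjusted p = 0.00247), and the call held without each single array in turn. In a fit of the 8 ASO arrays alone its limma adjusted p was 0.0772, and its other probe set, with a mean of 4.60, changed by -0.19. In transgenic liver Pex13 changed by 0.13 ± 0.06 (limma adjusted p = 0.434), and the effects differed by 0.58 ± 0.09 (limma adjusted p = 0.00411). Pex3, which is needed to form peroxisomal membranes, had a transgenic change of 0.25 ± 0.08 and an ASO change of -0.31 ± 0.09 (limma adjusted p = 0.231 and 0.131), and these effects differed by 0.56 ± 0.12 (limma adjusted p = 0.0365). That call was lost without any 1 of 11 arrays (highest limma adjusted p = 0.0822), and the other Pex3 probe set gave 0.25. Pex11g changed by -0.58 ± 0.15 after ACAT2 ASO (limma adjusted p = 0.0914).

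Of other enzymes of oxidation and ketone body synthesis 21 of 25 listed genes were measured, and limma called 0 in each model. Of the 21, 11 lay above 0 in transgenic liver (median 0.02) and 11 below 0 after ACAT2 ASO (median -0.01). Over all genes these shares were 52.6% and 50.3%. Hsd17b4, the second peroxisomal multifunctional enzyme, changed by 0.26 ± 0.08 in transgenic liver (limma adjusted p = 0.232) and by -0.06 after ACAT2 ASO. Pdk2, a kinase of pyruvate dehydrogenase like Pdk4, changed by -0.25 ± 0.08 and -0.18 ± 0.09 (limma adjusted p = 0.241 and 0.410). Among other PPARA targets 26 of 30 were measured, with 0 called in each model. Of the 26, 21 lay above 0 in transgenic liver (median 0.10), against 52.6% of all genes. After ACAT2 ASO 17 lay below 0 (median -0.04), against 50.3% of all genes. G0s2, an inhibitor of triglyceride lipolysis, lay between 9.66 and 10.37 in transgenic liver, against 8.44 to 9.71 in wild-type liver (change 1.02 ± 0.26, limma adjusted p = 0.123). Transgenic 5 alone lay below the highest wild-type array. After ACAT2 ASO G0s2 changed by -0.66 ± 0.30 (limma adjusted p = 0.344), and the effects differed by 1.68 ± 0.40 (limma adjusted p = 0.0504). Plin2, which coats lipid droplets, changed by 0.11 ± 0.09 and 0.01 ± 0.10. Pltp, the phospholipid transfer protein, changed by -0.58 ± 0.15 in transgenic liver (limma adjusted p = 0.112). Genes of fasting, gluconeogenesis and insulin response were measured for 12 of 15, with 0 called in each model and median changes of 0.05 and 0.02.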

How the data were processed

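Total RNA of liver was hybridised to 18 GeneAtlas MG-430 PM arrays after Trizol extraction and 3′-IVT labelling, per the labels' protocols. The deposited values are log2 probe set signals, and per the submitters' processing notes the authors used RMA; its version, and whether models were normalized together, were not given in the sources used here. Of 45141 probe sets, 104 controls were left out, and 28898 had 1 gene symbol, 551 several and 15588 none in the platform annotation. Each gene was read from its probe set of highest mean, without a filter on low values. Differences were tested with lmFit and eBayes of limma 3.58.1 (R 4.3.3), in 1 fit of 4 group means over 18 arrays, two-sided, with Benjamini-Hochberg adjustment over 17097 genes. The procedure was tested on simulated data. The members, the lists and the naming rule (genes called, the 10 smallest p per comparison, the smallest p per role, groups that do not overlap, highest mean and widest range) were chosen with earlier results of these data known. The number of arrays limits the precision. Figures used matplotlib 3.10.9.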

Additional observations from a re-analysis of the deposited data

Results flagged for a closer look

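Within a group, 12 of 152 tests over the 38 genes and 4 groups found 1 array far from the others, and chance flags about 1 in 20 such groups. In transgenic liver this was transgenic 3, high for Acadvl (10.85, others 10.65 to 10.68) and Pdk4 (4.98, others 4.44 to 4.56) and low for Angptl4 (8.75, others 9.62 to 9.86). In wild-type liver it was wild type 2, low for Hadh (12.37, others 12.58 to 12.63) and Etfa (11.16, others 11.35 to 11.43). After ACAT2 ASO it was array 1, low for Hadh (12.35, others 12.60 to 12.63) and Hao2 (6.09, others 8.54 to 8.76), and array 2, low for Angptl4 (9.67, others 10.08 to 10.15). After control ASO it was array 4, low for Ech1 (11.18, others 11.51 to 11.57) and Acot3 (9.84, others 10.94 to 11.13), array 1, high for Crot (5.29, others 5.07 to 5.09), and array 3, high for Fgf21 (5.53, others 5.05 to 5.10). G0s2, outside the 38 genes, read 11.20 on control ASO 1, against 10.61 to 10.66 on the others of that group.

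The effect in transgenic liver and the effect of ACAT2 ASO differed by limma's test of the difference for 3 pathway genes, by 0.58 for Pex13, 0.56 for Pex3 and -0.38 for Ncoa2 (limma adjusted p = 0.00411, 0.0365 and 0.0452). For Ncoa2 the call held in 5 of 18 fits that each left out 1 array, with a highest limma adjusted p of 0.101, and for Pex3 it was lost without any 1 of 11 arrays (highest 0.0822).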

How the results depend on the processing

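The alternatives recomputed 3154 values of the 38 genes, and 0 were called. Of the 3154, 2949 kept sign and side, 195 changed sign while below their standard error, and 10 reversed. Part of the 2949 kept its sign by design, since some alternatives leave the log2 change within a model as it was. These were the filter on low values, each model's own arrays, limma's trend and robust options, the replicate block, and leaving out an array of the other model. With the probe set of widest spread the transgenic change was -0.12 for Acaa2, and for Hadhb the ASO change was -0.40 and the difference of effects 0.47 (-0.19 and 0.22 with the mean of probe sets). Without the array of lowest weight in each group (transgenic 3, wild type 2, ACAT2 ASO 1, control ASO 4; a setting added after seeing the data) the transgenic change was -0.054 for Cpt2, -0.032 for Etfdh, -0.46 for Acot1, -0.24 for Cyp4a10 and -0.13 for Ppara, and the difference of effects was -0.046 for Cpt2. The median over the 38 genes ranged from 0.02 to 0.13 in transgenic liver and from -0.11 to 0.05 after ACAT2 ASO when single arrays were left out. Counts over all genes (39 in transgenic liver, 102 after ACAT2 ASO and 183 for the difference) ranged from 20 to 58, 42 to 203 and 69 to 262 without single arrays. They were 20, 50 and 40 without the arrays of lowest weight, 17, 26 and 28 at an adjusted p under 0.01, and 8, 29 and 42 with a change of at least 1.5-fold. Each model's own arrays gave 13 and 17, array weights 43, 465 and 369, and the difference was called for 112 genes after median centring and 102 after quantile normalization. Array weights gave Cpt1a a limma adjusted p of 0.0525. Same-numbered arrays of the 2 groups of a model had correlations of deviations between -0.48 and 0.17 (transgenic) and between -0.48 and 0.47 (ASO). These values cannot decide whether the numbers pair the samples, since the labels do not say what the numbers stand for. The replicate block gave 2, 18 and 12 genes, and Pex13 a limma adjusted p of 0.0742.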
